A study of Mus musculus with 90 samples.

Results

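Brown adipose tissue (BAT) was compared between mice in estrus and mice in diestrus, in 5 RNA sequencing libraries of the 90 that cover 15 tissues. The members of the comparison were taken by tissue and phase from the sample labels, and gave BAT estrus replicates 1 and 2 against BAT diestrus replicates 1, 2 and 3. The mice were C57BL/6 females (C57BL/6J in the study's methods) with no named allele or agent, 10 weeks old according to the labels (the study's methods give another age), and their phase was read from stained vaginal smears. Both groups shared strain, age, sex and housing, and differed in the phase of the estrous cycle. The remaining estrus library, BAT estrus replicate 3, was kept out of the main comparison because it was very shallow, and its values are given beside the results as a single library.

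Brown fat burns fatty acids and glucose to make heat. Noradrenaline from sympathetic nerves acts on adrenergic receptors of the brown adipocyte, cyclic AMP and protein kinase A then release fatty acids from lipid droplets, and the mitochondrial carrier UCP1 lets protons back into the matrix without making ATP. The tissue is densely supplied with capillaries, it has its own circadian clock, and it carries receptors for estrogens, whose level in blood peaks before ovulation and is low again in diestrus.

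The expression of 20414 genes was taken to be in FPKM (fragments per kilobase, corrected for the size of the library), a scale on which levels of different genes can be compared per length. Neither the header of the values nor the sample labels name the unit. Reads per library, approximated from the smallest values of short genes, came to 10.9M and 10.1M in the estrus libraries and 8.90M, 9.15M and 8.48M in the diestrus libraries, so that the estrus libraries were a little deeper. The study's methods give more reads per sample than this approximation gave for any library, so it serves only to compare libraries. BAT estrus replicate 3 came to 0.0734M reads against 7.06M to 16.9M in the other 89 libraries of the series, and 12048 genes were at 0 in it against 4545 to 4820 in the 5 libraries compared. Its Pearson correlation with the other BAT libraries on the log2(FPKM + 1) scale was 0.829 to 0.853, where those 5 correlated at 0.954 to 0.988 among themselves. In this shallow library a gene at 0 may still be expressed, and the values of genes at a low level rest on few reads.

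The tissue label held against markers of brown and white fat cells. Ucp1 stood at 3492 to 5574 FPKM in the 6 BAT libraries and at 0.66 to 32.8 FPKM in the 6 libraries of white adipose tissue (WAT). The brown marker sum, over 10 genes, was 11823 and 12682 FPKM in estrus and 15393, 13572 and 13795 FPKM in diestrus, lower in both estrus libraries than in diestrus while the median log2 fold change of the 10 genes was 0.13, against 48.3 to 330.5 FPKM in WAT. Among these brown markers, Ebf2 did not separate the fats, at 3.82 to 14.9 FPKM in the compared BAT libraries and 3.72 to 7.01 FPKM in WAT. Hoxc9, a homeobox gene of subcutaneous and gonadal white fat, was at 0 in every BAT library and at 10.8 to 17.1 FPKM in WAT. Some tissue of other kinds was present, since markers of skeletal muscle fibres summed to 2659 and 2864 FPKM in estrus and 709, 220.4 and 11013 FPKM in diestrus. The muscle sum was lowest in diestrus replicates 1 and 2 and highest in diestrus replicate 3, with the estrus libraries between them.

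Of the 20414 genes, 11215 averaged 1 FPKM or more in the 5 libraries and were tested with limma on log2(FPKM + 1), and every log2 fold change below is estrus minus diestrus on that scale, which understates the differences of low genes. A gene was called where its adjusted p (Benjamini-Hochberg) did not exceed 0.05 and its log2 fold change reached 1 up or down. No gene was called (0 of 11215, 0%), and none passed the limit on the adjusted p alone. The smallest adjusted p was 0.0511, which 530 genes shared, 20 of them at least 1 log2 unit higher in estrus and 24 at least 1 log2 unit lower. At an adjusted p of at most 0.1 with the same fold, 35 genes (0.312%) were higher in estrus and 47 (0.419%) lower. Of the 11215 genes, 5288 had a higher and 5927 a lower estrus mean. An unadjusted p under 0.05 was reached by 1424 genes (12.7%) with a higher and 1939 genes (17.3%) with a lower estrus mean. The libraries of the phases did not overlap for 2569 genes (22.9%) that were higher in estrus and for 2974 genes (26.5%) that were lower, and these shares are the background for the counts given for the gene lists. When 1 library was left out, the median of 36 of the 45 gene lists moved by over 1.5 times or changed sign. That range, lowest to highest, is given in brackets beside some of these medians, and a median without it need not be stable. Among those without it, the sign changed for markers of brown adipocytes, macrophages, plasma cells, mammary epithelium and thymocytes. It also changed for cholesterol synthesis, adipogenic factors, immediate early genes, endoplasmic reticulum stress, MHC class II and collagens. Other settings did call genes: 45 where only genes averaging 5 FPKM or more were tested, 57 in one fit of all 15 tissues, and 76 with BAT estrus replicate 3 taken in at a lower weight. With 2 libraries against 3, an exact permutation test over the 10 possible splits cannot go below p = 0.1, so no single gene could pass such a test. All p-values measure the spread between these libraries, and in bulk tissue fewer cells of a type and less RNA per cell cannot be told apart.

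Clock genes of the Dbp phase had one of the lowest medians of all lists, and the lowest log2 fold change of any pathway gene. Those of the opposite arm, the Bmal1 phase, had a median of 0.43, or -0.03 without BAT estrus replicate 1. Circadian clocks run on a loop in which CLOCK and BMAL1 (the product of Arntl) bind E-boxes in front of the Per, Cry, Dbp, Tef, Ciart and Nr1d1 genes, and PER and CRY proteins then shut their own genes down. DBP, TEF and HLF in turn bind D-boxes, for example in front of the Per genes. Of the 13 genes of the Dbp phase, which peak around the end of the day in mouse tissues, 11 had a lower and 2 a higher estrus mean, with a median log2 fold change of -0.63 where all tested genes had -0.02. The unadjusted p was under 0.05 for 7 lower genes and 1 higher gene, and the same 8 genes had libraries without overlap.

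The promoters of 4 of these genes are shown, chosen because they hold the clock elements just named. All 4 genes had a lower estrus mean, so they do not stand for the whole list. Each run holds 300 bases of GRCm38.p6, from 250 bases before to 50 bases after a start of transcription in RefSeq, read 5′ to 3′ on the strand of the gene. Capitals mark E-boxes (CACGTG, the same on both strands) in Ciart (chr3:95882179-95882478, minus strand), Per1 (chr11:69098699-69098998, plus strand) and Tef (chr15:81802423-81802722, plus strand), and D-boxes (TTATGTAA, or TTACATAA on the other strand) in Per3 (chr4:151044616-151044915, minus strand). The motifs do not overlap each other.
Ciart: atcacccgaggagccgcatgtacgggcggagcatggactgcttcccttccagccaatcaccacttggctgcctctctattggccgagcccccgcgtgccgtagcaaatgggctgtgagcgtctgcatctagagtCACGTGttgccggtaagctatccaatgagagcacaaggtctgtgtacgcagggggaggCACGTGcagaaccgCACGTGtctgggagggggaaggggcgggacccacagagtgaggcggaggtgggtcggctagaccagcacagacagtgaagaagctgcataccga
Per1: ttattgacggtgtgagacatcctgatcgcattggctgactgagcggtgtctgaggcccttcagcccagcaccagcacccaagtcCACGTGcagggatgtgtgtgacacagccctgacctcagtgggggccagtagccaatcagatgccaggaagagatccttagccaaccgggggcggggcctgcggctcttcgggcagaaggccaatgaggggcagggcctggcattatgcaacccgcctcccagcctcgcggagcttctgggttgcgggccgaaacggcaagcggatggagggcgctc
Tef: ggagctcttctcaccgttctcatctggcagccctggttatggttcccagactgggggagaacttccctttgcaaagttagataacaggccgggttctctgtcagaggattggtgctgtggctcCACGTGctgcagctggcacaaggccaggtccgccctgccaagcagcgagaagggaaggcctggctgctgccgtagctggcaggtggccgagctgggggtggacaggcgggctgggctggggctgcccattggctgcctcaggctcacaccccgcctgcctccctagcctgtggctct
Per3: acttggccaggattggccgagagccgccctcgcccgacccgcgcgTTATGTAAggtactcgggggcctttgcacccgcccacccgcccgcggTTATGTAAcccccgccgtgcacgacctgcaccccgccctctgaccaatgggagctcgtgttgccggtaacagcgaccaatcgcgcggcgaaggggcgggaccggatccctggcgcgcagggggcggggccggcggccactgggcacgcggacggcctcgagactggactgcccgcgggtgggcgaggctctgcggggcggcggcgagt
Ciart held 3 E-boxes, beginning 116, 58 and 44 bases before the start, Per1 held 1 at 166 bases and Tef 1 at 127 bases before it. Per3 held 2 D-boxes, at 205 and 158 bases before its start, and no E-box. Over all 32851 promoters of this length in RefSeq, 7.15% held the E-box and 0.938% the D-box. Of the 13 genes, 11 had a promoter in the table, 4 of which (Bhlhe41 beside the 3 shown) held an E-box and 1 a D-box. Dbp, Cry2 and Nr1d1 held neither motif in this window, and Cry1 of the opposite arm held an E-box. Whether a motif goes with a change in level was not tested. A match describes the sequence, and where there is none these letters are just not in this window.

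Ciart, a repressor of CLOCK and BMAL1 whose promoter above holds 3 E-boxes, had 3.19 and 5.51 FPKM in estrus and 21.4, 17.1 and 15.98 FPKM in diestrus. All diestrus libraries were above both estrus libraries (log2 fold change -1.87 ± 0.22, SE, adjusted p = 0.0511), and no gene of the 45 lists except the xenobiotic enzyme Cyp2e1, a white fat marker, had a lower log2 fold change. Dbp, the D-box activator, had 17.8 and 72.1 FPKM in estrus and 112, 102 and 114 FPKM in diestrus, with a wide gap between the estrus libraries and hardly any spread in diestrus (log2 fold change -1.57 ± 0.53, SE, adjusted p = 0.118). Its relative Tef had 34.5 and 61.2 FPKM in estrus and 83.1, 71.5 and 87.1 FPKM in diestrus (log2 fold change -0.79 ± 0.24, SE, adjusted p = 0.0992), and again neither estrus library reached a diestrus library. The other member of that family, Hlf, had 5.56 and 12.7 FPKM in estrus and 10.9, 9.58 and 13.03 FPKM in diestrus, so that its phases overlapped (log2 fold change -0.35 ± 0.31, SE, adjusted p = 0.486).

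The period genes, which feed back on CLOCK and BMAL1, went the same way. Per1 had 12.6 and 17.9 FPKM in estrus and 26.8, 18.5 and 26.9 FPKM in diestrus (log2 fold change -0.63 ± 0.22, SE, adjusted p = 0.123). Per2 had 4.29 and 16.3 FPKM in estrus and 18.6, 19.1 and 26.6 FPKM in diestrus (log2 fold change -1.21 ± 0.48, SE, adjusted p = 0.162). Per3, with the 2 D-boxes shown above, had 2.47 and 8.73 FPKM in estrus and 11.6, 11.4 and 13.96 FPKM in diestrus (log2 fold change -1.19 ± 0.41, SE, adjusted p = 0.124). In each of the 3 genes estrus replicate 1 was the lowest of the 5 libraries and estrus replicate 2 lay between it and the diestrus libraries. The cryptochrome Cry2 had 5.33 and 8.78 FPKM in estrus and 9.57, 10.8 and 9.96 FPKM in diestrus (log2 fold change -0.50 ± 0.19, SE, adjusted p = 0.154), also without overlap.

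Nr1d1 (REV-ERBα), a repressor of Arntl that is switched on by the same E-boxes, went against its group with 85.6 and 81.6 FPKM in estrus and 64.7, 70.8 and 54.3 FPKM in diestrus (log2 fold change 0.40 ± 0.13, SE, adjusted p = 0.107). Its relative Nr1d2 had 12.8 and 22.01 FPKM in estrus and 23.4, 21.4 and 26.9 FPKM in diestrus and overlapped (log2 fold change -0.48 ± 0.23, SE, adjusted p = 0.221). Bhlhe40, Bhlhe41 and Usp2 overlapped between the phases, at log2 fold changes of 0.22, -0.05 and -0.69. On the opposite arm of the clock, Arntl had 5 and 1.83 FPKM in estrus and 1.26, 2.60 and 0.950 FPKM in diestrus, with overlap (log2 fold change 0.71 ± 0.39, SE, adjusted p = 0.277). Clock itself had 7.11 and 5.89 FPKM in estrus and 3.78, 4.95 and 4.13 FPKM in diestrus, without overlap (log2 fold change 0.51 ± 0.14, SE, adjusted p = 0.0878). Cry1, which peaks late in the night, was lower in estrus (log2 fold change -0.51 ± 0.16, SE, adjusted p = 0.104). The 5 tested genes of this arm had a median log2 fold change of 0.43, but -0.03 without BAT estrus replicate 1.

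**Figure D1:**
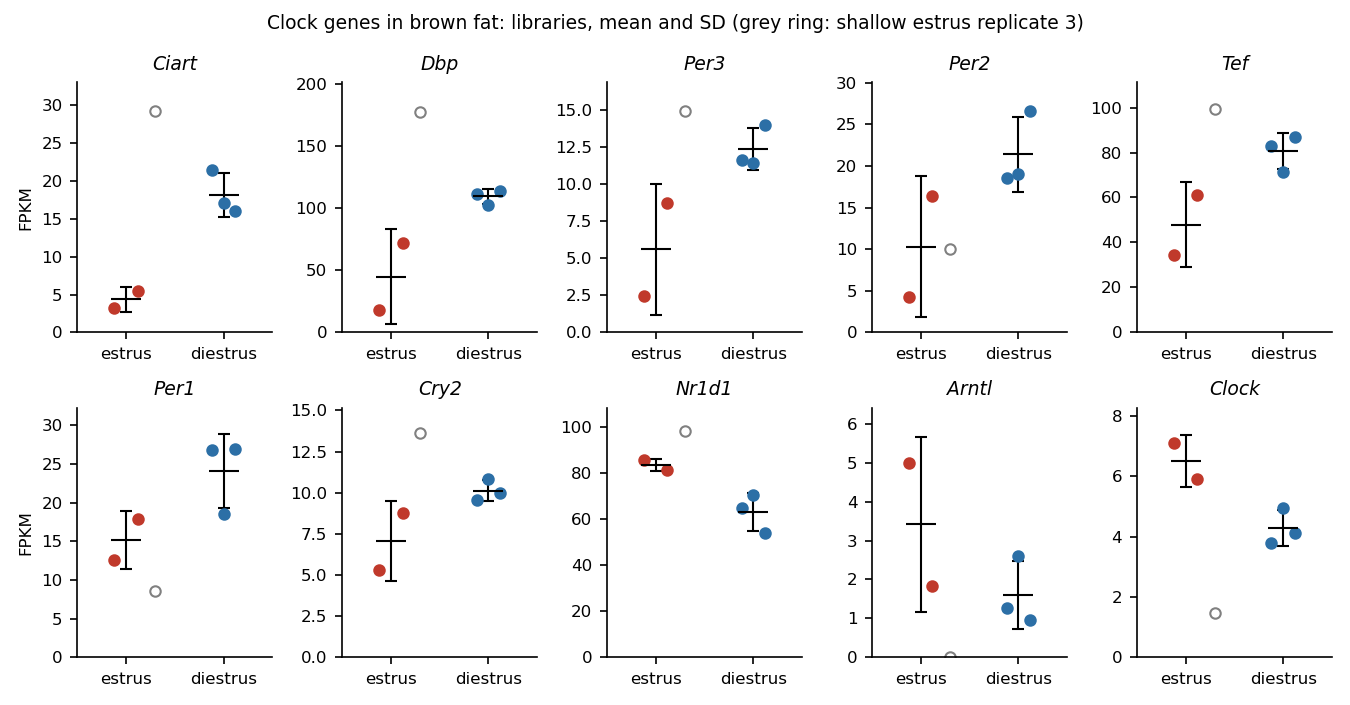
FPKM of 10 clock genes in each BAT library, with estrus replicates 1 and 2 in red, the 3 diestrus libraries in blue, the mean and SD of each phase as black bars, and the shallow estrus replicate 3 as a grey ring outside the mean. Ciart, Dbp, Per3, Per2, Tef, Per1 and Cry2 were lower in both red libraries than in any blue library, Nr1d1 and Clock were higher, and the grey ring lay above the blue points for Ciart, Dbp, Per3, Tef and Cry2.

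The shallow BAT estrus replicate 3 was split here, and its values of the less abundant clock genes rest on few reads. It had 29.2 FPKM of Ciart, 177 of Dbp, 99.4 of Tef and 14.9 of Per3, each above all 3 diestrus libraries, but 8.61 of Per1 and 9.98 of Per2, below them. With it in the estrus group, the log2 fold change was -1.02 for Ciart, -0.82 for Dbp and -0.43 for Tef, and the median of the Dbp phase -0.43. Without BAT estrus replicate 1 the median of the 13 genes was -0.35, and without BAT estrus replicate 2 it was -0.87. The sources used here give no time of dissection, so phase and the hour of collection cannot be told apart for these genes.

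The thermogenic programme was mixed. Of its 22 genes, 15 had a higher and 7 a lower estrus mean, with 7 and 4 at an unadjusted p under 0.05 and a median log2 fold change of 0.13. Ucp1, the proton carrier that defines the tissue, had 5574 and 4868 FPKM in estrus and 4747, 4314 and 3499.6 FPKM in diestrus. Both estrus libraries were above the diestrus libraries by a small margin (log2 fold change 0.33 ± 0.15, SE, adjusted p = 0.205), while the shallow estrus replicate 3 had 3492 FPKM, level with the lowest diestrus library, and with it the log2 fold change was 0.13.

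The factors of brown adipocyte identity on the list differed among themselves. Prdm16, a coregulator that holds brown fat cells apart from muscle and white fat, had 8.66 and 6.60 FPKM in estrus and 3.07, 3.73 and 2.78 FPKM in diestrus, so that the lowest estrus library was well above the highest diestrus library (log2 fold change 1.04 ± 0.16, SE, adjusted p = 0.0511). Ebf2, a transcription factor that recruits PPARγ to brown fat genes, had 14.9 and 10.5 FPKM in estrus and 3.82, 6.47 and 5.15 FPKM in diestrus (log2 fold change 1.16 ± 0.23, SE, adjusted p = 0.0511). Zic1, a transcription factor that marks interscapular brown fat, had 3.27 and 1.98 FPKM in estrus and 2, 3.19 and 1.92 FPKM in diestrus, with overlap (log2 fold change 0.10 ± 0.23, SE, adjusted p = 0.798). Estrus replicate 3 had 8.36 and 12.1 FPKM of Prdm16 and Ebf2, above the diestrus libraries, but at its depth these values rest on few reads. Ppargc1a, the coactivator of mitochondrial genes that cold induces, had 70.7 and 19.5 FPKM in estrus and 18.4, 9.66 and 14.5 FPKM in diestrus, with estrus replicate 1 far above the rest and estrus replicate 2 next to diestrus replicate 1 (log2 fold change 1.38 ± 0.54, SE, adjusted p = 0.155). The orphan receptor gene Esrrg and Pank1, a kinase of coenzyme A synthesis, were higher in estrus without overlap, at log2 fold changes of 0.65 and 0.59.

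Other genes of the programme lay on the other side or did not separate. Cidea, a lipid droplet protein, had 1883 and 2287 FPKM in estrus and 2797, 2496 and 2521 FPKM in diestrus (log2 fold change -0.33 ± 0.11, SE, adjusted p = 0.128), and the sign turned under quantile normalization (0.036). Cox8b, the cytochrome oxidase subunit typical of brown fat, had 2812 and 3669 FPKM in estrus and 5501, 4668 and 5228 FPKM in diestrus (log2 fold change -0.67 ± 0.14, SE, adjusted p = 0.0548). These are short transcripts, and with the trend on transcript length that is described further on taken out, the log2 fold change was -0.04 for Cidea and -0.02 for Cox8b. Dio2, which makes active thyroid hormone in the brown adipocyte, ranged from 33.3 to 80.4 FPKM in diestrus, a range that held both estrus libraries.

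The pathway from noradrenaline to protein kinase A had higher estrus means in 12 of 17 genes and lower ones in 5, with a median log2 fold change of 0.41. An unadjusted p under 0.05 was reached by 8 higher and 2 lower genes. Among receptors, Adra1a, the α1A-adrenergic receptor, had 25.9 and 19.5 FPKM in estrus and 14.97, 13.8 and 12.02 FPKM in diestrus, without overlap (log2 fold change 0.69 ± 0.16, SE, adjusted p = 0.0586). The main β-adrenergic receptor of rodent fat, Adrb3, had 111 and 82.5 FPKM in estrus and 48.5, 128 and 59.3 FPKM in diestrus, and its phases overlapped because diestrus replicate 2 was the highest library (log2 fold change 0.41 ± 0.41, SE, adjusted p = 0.532). Adrb1 was higher without overlap (0.59 ± 0.23, SE, adjusted p = 0.149).

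Downstream of the receptors, the adenylyl cyclase gene Adcy3 had 69.3 and 50.6 FPKM in estrus and 39.5, 37.03 and 36.6 FPKM in diestrus (log2 fold change 0.64 ± 0.14, SE, adjusted p = 0.0594), while Adcy4 was lower in estrus (-0.47 ± 0.13, SE, adjusted p = 0.0807). Prkacb, a catalytic subunit of protein kinase A, had 24.9 and 21.6 FPKM in estrus and 14.8, 15.7 and 13.9 FPKM in diestrus (log2 fold change 0.61 ± 0.11, SE, adjusted p = 0.0511), and the more abundant catalytic subunit Prkaca overlapped at a log2 fold change of 0.09. The regulatory subunits Prkar2b and Prkar1a were higher, by 0.47 and 0.45 on the log2 scale. Pde3b, the phosphodiesterase through which insulin lowers cyclic AMP in fat cells, had 76.7 and 64.98 FPKM in estrus and 46.1, 49.1 and 43.5 FPKM in diestrus (log2 fold change 0.60 ± 0.11, SE, adjusted p = 0.0511), and Pde4d was higher as well (0.62 ± 0.17, SE, adjusted p = 0.0836). The stimulatory G protein gene Gnas overlapped at 3203 and 4445 FPKM in estrus and 4344, 4608 and 4463 FPKM in diestrus. The median of the 17 genes was 0.23 with BAT estrus replicate 3 and 0.18 without BAT estrus replicate 1.

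**Figure D2:**
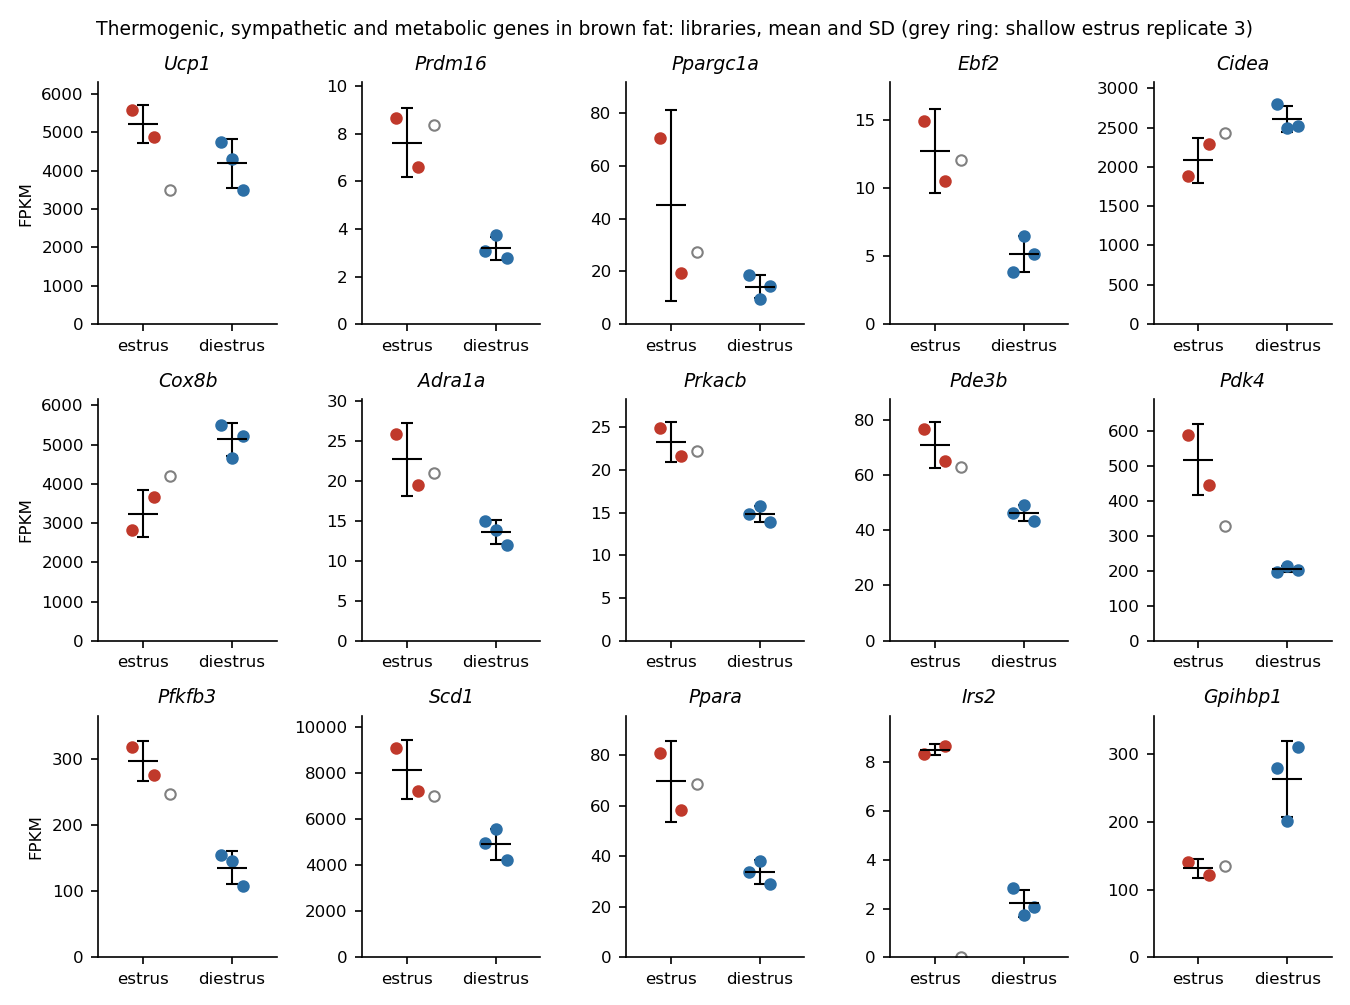
FPKM of 15 genes of heat production, adrenergic signalling and fuel handling in each BAT library, drawn as in the plot of clock genes (red, estrus replicates 1 and 2; blue, diestrus; black, mean and SD; grey ring, shallow estrus replicate 3). Prdm16, Ebf2, Adra1a, Prkacb, Pde3b, Pdk4, Pfkfb3, Scd1, Ppara and Irs2 were higher in both red libraries than in every blue one, Cidea, Cox8b and Gpihbp1 were lower, and Ppargc1a had 1 estrus library far above the rest.

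Genes that steer pyruvate into or away from the mitochondria lay on both sides. Pdk4, the kinase that shuts down pyruvate dehydrogenase when fat is burned, had 591 and 448 FPKM in estrus and 198, 214 and 203 FPKM in diestrus. The diestrus libraries were close together and both estrus libraries were at more than 400 FPKM (log2 fold change 1.33 ± 0.13, SE, adjusted p = 0.0511). In BAT estrus replicate 3 Pdk4 was at 329 FPKM, again above diestrus, and with that library the log2 fold change was 1.11. Of the 23 genes of the citrate cycle and of pyruvate entry, 19 had a higher and 4 a lower estrus mean, 9 and 2 of them at an unadjusted p under 0.05, and the median was 0.18. Pdha1, a subunit of pyruvate dehydrogenase, had 769.8 and 739 FPKM in estrus and 515, 574 and 501 FPKM in diestrus (log2 fold change 0.51 ± 0.09, SE, adjusted p = 0.0511). Citrate synthase, Cs, was higher by less (0.28 ± 0.10, SE, adjusted p = 0.135). Both were above every diestrus library in the shallow estrus replicate 3 too. Mpc2, a subunit of the carrier that takes pyruvate into the mitochondrion, was lower (-0.60 ± 0.13, SE, adjusted p = 0.0552), and its partner Mpc1 had 1377 and 1863 FPKM in estrus and 1697, 1867 and 2086 FPKM in diestrus, with overlap (log2 fold change -0.23 ± 0.16, SE, adjusted p = 0.37).

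In glycolysis the genes did not lean to a side, with 10 of 24 higher and 14 lower in estrus and a median of -0.05, which was 0.20 under quantile normalization. Pfkfb3, whose product makes the strongest activator of phosphofructokinase, stood out with 319 and 276 FPKM in estrus and 155, 146 and 108 FPKM in diestrus (log2 fold change 1.13 ± 0.17, SE, adjusted p = 0.0511). The abundant enzymes Gapdh, Aldoa and Eno1 were slightly lower, with log2 fold changes of -0.25, -0.12 and -0.14, each without overlap, and that of Eno1 was 0.19 under quantile normalization. Gbe1, which branches glycogen, was higher (0.60 ± 0.15, SE, adjusted p = 0.0669).

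Fatty acid synthesis had 11 of 17 genes with a higher estrus mean and 5 higher and 0 lower genes at an unadjusted p under 0.05, with a median of 0.22 (0.13 without BAT diestrus replicate 3 to 0.42 without BAT diestrus replicate 2). Scd1, the desaturase that makes oleate, had 9067 and 7241 FPKM in estrus and 4958, 5552 and 4219 FPKM in diestrus (log2 fold change 0.73 ± 0.16, SE, adjusted p = 0.0555). Acly, which cuts citrate to acetyl-CoA, had 721 and 622 FPKM in estrus and 363, 488 and 306 FPKM in diestrus (log2 fold change 0.82 ± 0.20, SE, adjusted p = 0.0691). Pck1, which feeds glycerol synthesis in fat, had 1857 and 1491 FPKM in estrus and 947, 1017 and 929.8 FPKM in diestrus (log2 fold change 0.79 ± 0.12, SE, adjusted p = 0.0511). All 3 genes were higher in both estrus libraries than in every diestrus library. Fasn itself was higher by 0.22 on the log2 scale (1812 and 1980.2 FPKM in estrus and 1593, 1746 and 1553 FPKM in diestrus), and Thrsp and the regulators Srebf1 and Mlxipl overlapped, with log2 fold changes of -0.23, -0.29 and -0.09.

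Oxidation of fatty acids had a median near that of all genes (0.05 over 25 genes), with 6 higher and 1 lower gene at an unadjusted p under 0.05. Ppara, the fatty acid receptor that drives this pathway, had 80.9 and 58.3 FPKM in estrus and 33.9, 38.3 and 29.1 FPKM in diestrus (log2 fold change 1.01 ± 0.18, SE, adjusted p = 0.0511). The trifunctional protein subunit Hadhb was higher by 0.28 and the electron transfer gene Etfdh by 0.49 on the log2 scale, while Etfb was lower (-0.64 ± 0.09, SE, adjusted p = 0.0511). With the length trend removed, Etfb had -0.28. The carnitine transferase Cpt1b overlapped, at 385 and 319 FPKM in estrus and 356, 316 and 343 FPKM in diestrus.

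Of 21 genes of fatty acid uptake and triglyceride synthesis, 12 had a higher and 9 a lower estrus mean, 5 of either kind at an unadjusted p under 0.05. Lpl, the lipase that frees fatty acids from circulating triglyceride, had 1084 and 1335 FPKM in estrus and 1939.7, 1545 and 2122 FPKM in diestrus (log2 fold change -0.62 ± 0.17, SE, adjusted p = 0.0783). Gpihbp1, the endothelial protein that carries LPL to the capillary lumen, had 141 and 121 FPKM in estrus and 279.6, 201 and 309 FPKM in diestrus (log2 fold change -0.98 ± 0.20, SE, adjusted p = 0.0521). Both genes were lower in every estrus library, the shallow one included, than in any diestrus library. Angptl4, an inhibitor of LPL, had 166 and 85.3 FPKM in estrus and 71.9, 72.96 and 52.2 FPKM in diestrus and was higher (log2 fold change 0.86 ± 0.30, SE, adjusted p = 0.125). Fabp4, the gene with the most FPKM among them, was lower by a small amount (-0.25 ± 0.10, SE, adjusted p = 0.165; 0.044 under quantile normalization).

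Lipolysis and lipid droplet genes had a median of -0.14, or 0.031 under quantile normalization and -0.018 without BAT estrus replicate 1 (18 genes, 4 higher and 3 lower at an unadjusted p under 0.05). Fitm2, which helps droplets bud, was higher (0.78 ± 0.17, SE, adjusted p = 0.0576), as was the hormone-sensitive lipase Lipe (0.48 ± 0.18, SE, adjusted p = 0.151), and the triglyceride lipase Pnpla2 overlapped at 1653 and 1591 FPKM in estrus and 1905, 1861 and 1583 FPKM in diestrus. In cholesterol synthesis, Hmgcs1, an early enzyme, had 85.9 and 63.7 FPKM in estrus and 33.3, 45.4 and 33.3 FPKM in diestrus (log2 fold change 0.98 ± 0.19, SE, adjusted p = 0.0511), but the 23 genes split evenly (12 higher, 11 lower, median 0.04). Of 16 genes of insulin signalling, Irs2, the receptor substrate that insulin and fasting regulate at the transcript level, had 8.36 and 8.67 FPKM in estrus and 2.83, 1.75 and 2.07 FPKM in diestrus (log2 fold change 1.58 ± 0.16, SE, adjusted p = 0.0511). It was at 0 in the shallow estrus replicate 3, which brings its value to 0.50 on the log2 scale when taken in (adjusted p = 0.77). The list had 5 higher and 1 lower gene at an unadjusted p under 0.05 and a median of 0.15 (0.024 without BAT estrus replicate 1 to 0.26 without BAT estrus replicate 2), Akt2 being higher (0.44 ± 0.14, SE, adjusted p = 0.0996) and Akt1 slightly lower (-0.23 ± 0.12, SE, adjusted p = 0.255). Pparg, the master regulator of fat cells, had 260.2 and 249 FPKM in estrus and 176, 189 and 168 FPKM in diestrus (log2 fold change 0.51 ± 0.09, SE, adjusted p = 0.0511), and Nr1h3, the oxysterol receptor LXRα, had 42.2 and 46.8 FPKM in estrus and 65.1, 67.5 and 63.04 FPKM in diestrus (log2 fold change -0.54 ± 0.09, SE, adjusted p = 0.0511), while the 18 genes of their list had a median of 0.01.

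The respiratory chain and the ribosome were lower in estrus in nearly every gene, and this went with the length of the transcript. Of 78 nuclear genes of oxidative phosphorylation, 71 had a lower estrus mean, 59 lower and 4 higher ones had an unadjusted p under 0.05, and the median was -0.41. Uqcrq, a small subunit of complex III, had 495 and 545 FPKM in estrus and 958, 899.5 and 1009.7 FPKM in diestrus (log2 fold change -0.88 ± 0.09, SE, adjusted p = 0.0511). Sdha, the large subunit of complex II, went the other way with 749 and 744 FPKM in estrus and 543, 559 and 469 FPKM in diestrus (log2 fold change 0.51 ± 0.10, SE, adjusted p = 0.0511). Of 82 cytoplasmic ribosomal protein genes, 80 were lower, 73 of them at an unadjusted p under 0.05, with a median of -0.46. Rps14, of the small subunit, had 384 and 388 FPKM in estrus and 674, 607 and 688 FPKM in diestrus (log2 fold change -0.76 ± 0.09, SE, adjusted p = 0.0511).

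Both lists hold short transcripts, with a median length of 1026 bases for oxidative phosphorylation and 1100.0 bases for ribosomal proteins against 3333 bases over all tested genes with a length. Across genes, the log2 fold change had a Spearman's rho of 0.314 with transcript length and of -0.244 with GC content, over 11106 genes that share the same 5 libraries and are not independent. The median log2 fold change was -0.23 among the 2223 genes with the shortest transcripts and 0.10 among the 2221 with the longest. Of the short ones, 813 genes were lower and 55 higher at an unadjusted p under 0.05, and of the long ones 176 were lower and 463 higher. The deviation of each library from the mean of the 5 had a rho with length of 0.243 and 0.290 in the estrus libraries and of -0.287, -0.208 and -0.188 in the diestrus libraries, so every library followed its phase. The summed FPKM of a library moved too and was lower in both estrus libraries than in any diestrus library.

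With the trend on length removed by a smooth curve across genes, a step added after the values were seen, the median was -0.11 for oxidative phosphorylation, with 20 lower and 5 higher genes at an unadjusted p under 0.05, and -0.17 for ribosomal proteins, with 25 lower and 1 higher. Over all 11215 genes this step left 1471 lower (13.1%) and 1479 higher (13.2%) at that p. The median of the citrate cycle was 0.25 after that step, that of sympathetic signalling 0.43, that of the clock genes of the Dbp phase -0.68 and that of the endothelial markers -0.57. Uqcrq kept -0.70, and Ndufb7, with a log2 fold change of -0.89 as deposited, had -0.93. Phase and this trend cannot be told apart in the libraries of the main comparison, since each of them followed its phase. The shallow BAT estrus replicate 3 was not examined for the trend.

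**Figure D3:**
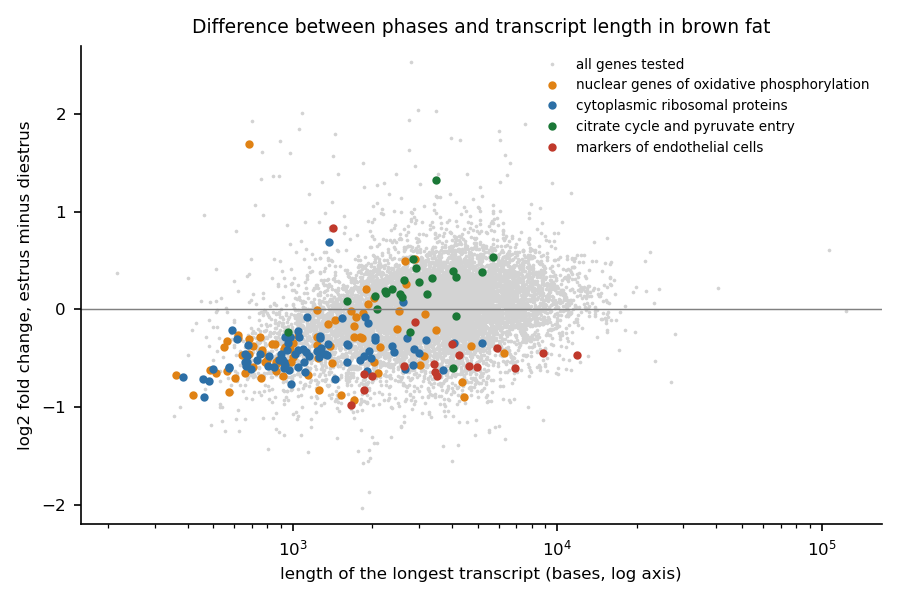
Log2 fold change of each tested gene (estrus minus diestrus) against the length of its longest transcript on a log axis, with 4 lists in colour. The ribosomal (blue) and oxidative phosphorylation genes (orange) crowd below 0 at short lengths, the citrate cycle genes (green) lie mostly above 0 around the middle lengths, and the endothelial markers (red) lie below 0 at all lengths, Cldn5 apart.

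Markers of endothelial cells, which line the capillaries, were lower in estrus in 17 of 18 genes, 15 of them at an unadjusted p under 0.05 and 14 without overlap of the phases. Their median was -0.58, and their summed level was 750.0 and 785 FPKM in estrus and 1150.0, 1040.2 and 1371 FPKM in diestrus, with 599 FPKM in the shallow estrus replicate 3. Egfl7, a protein that endothelial cells secrete, had 45.9 and 42.9 FPKM in estrus and 79.8, 75.4 and 83.4 FPKM in diestrus (log2 fold change -0.83 ± 0.09, SE, adjusted p = 0.0511). Pecam1, the adhesion molecule CD31, had 42.1 and 55.5 FPKM in estrus and 69.9, 72.5 and 85.9 FPKM in diestrus (log2 fold change -0.64 ± 0.15, SE, adjusted p = 0.0657). Tek, the angiopoietin receptor, had 13.4 and 12.6 FPKM in estrus and 18.5, 20.3 and 21.3 FPKM in diestrus (log2 fold change -0.59 ± 0.10, SE, adjusted p = 0.0511). In these 3 genes no estrus library reached the lowest diestrus library. The water channel Aqp1 had 170.2 and 184 FPKM in estrus and 252, 219.7 and 334 FPKM in diestrus (log2 fold change -0.58 ± 0.18, SE, adjusted p = 0.105).

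Most other endothelial markers lay on the same side. Cdh5, the adherens junction cadherin, had a log2 fold change of -0.35, the VEGF receptors Kdr and Flt1 had -0.40 and -0.60, Eng had -0.56 and Esam -0.66. Cldn5, a tight junction protein, was the exception with 43.2 and 28.7 FPKM in estrus and 14.5, 28.4 and 17.4 FPKM in diestrus (log2 fold change 0.83 ± 0.31, SE, adjusted p = 0.139), and it was at 0 in estrus replicate 3. The median of the list was -0.70 with BAT estrus replicate 3, and between -0.67 and -0.45 when any of the 5 libraries was left out. Vegfa, the growth factor of these cells, overlapped at 139.8 and 179.9 FPKM in estrus and 174, 186 and 130.2 FPKM in diestrus.

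Markers of smooth muscle cells and pericytes, which wrap the vessels, were lower in 10 of 12 genes, with a median of -0.36 and 4 genes at an unadjusted p under 0.05. Myh11, the smooth muscle myosin, had 5.08 and 5.91 FPKM in estrus and 8.91, 8.47 and 9.66 FPKM in diestrus (log2 fold change -0.63 ± 0.11, SE, adjusted p = 0.0511), while the pericyte gene Rgs5 had a log2 fold change of -0.25. Fibroblast and preadipocyte markers were lower in 13 of 15, with a median of -0.28 (-0.35 without BAT diestrus replicate 1 to -0.18 without BAT estrus replicate 1). Dlk1, the preadipocyte factor, had the lowest p of the list (-0.57 ± 0.13, SE, adjusted p = 0.0593), and Ly6a, which encodes the progenitor marker SCA1, the lowest log2 fold change, with 81.9 and 110.4 FPKM in estrus and 155, 152 and 257 FPKM in diestrus and no overlap (log2 fold change -0.93 ± 0.26, SE, adjusted p = 0.0877), while Dcn was near 0 (-0.10). Collagens and other matrix genes had a median of -0.08 over 31 genes, where the laminin chain Lamb1 was higher (0.80 ± 0.19, SE, adjusted p = 0.063) and Timp3, an inhibitor of matrix proteases, lower (-0.79 ± 0.27, SE, adjusted p = 0.122).

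**Figure D4:**
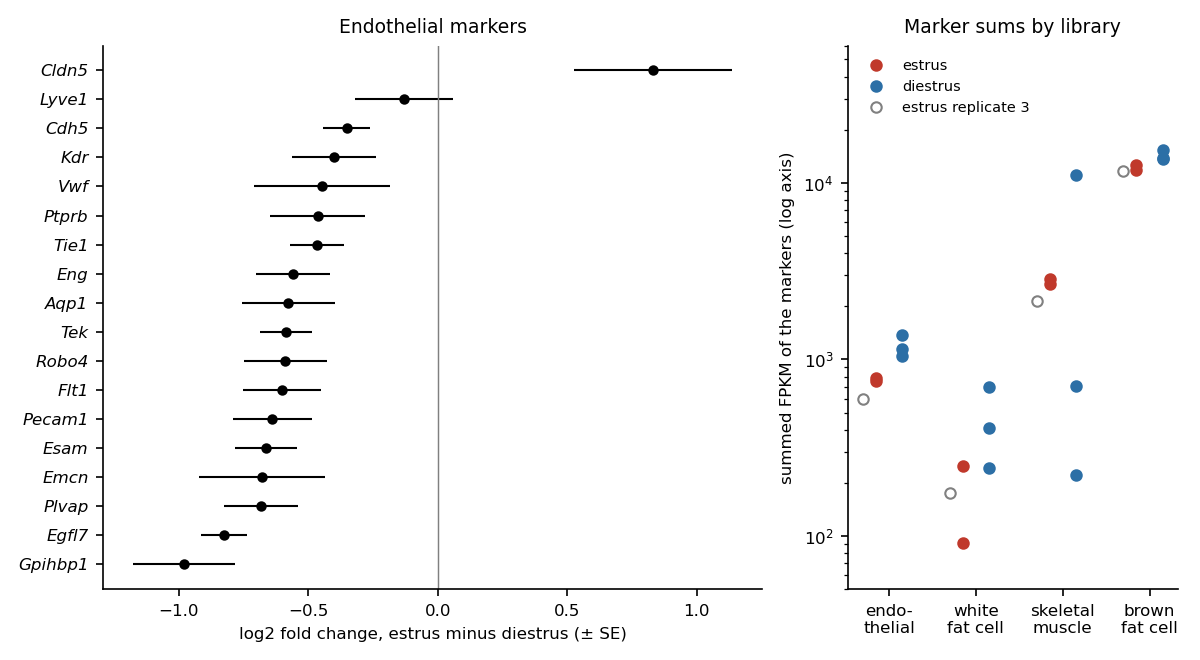
Left, log2 fold change with its SE for the 18 tested endothelial markers; right, summed FPKM of 4 marker lists in each BAT library on a log axis (red, estrus; blue, diestrus; grey ring, estrus replicate 3). All endothelial markers but Cldn5 lie left of 0, the endothelial sums of 750.0 and 785.0 FPKM in estrus lie below the lowest diestrus sum of 1040.0 FPKM, and the muscle sums in diestrus range from 220.4 to 11013 FPKM.

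White fat cell markers had a lower estrus mean in all 8 tested genes, 2 of them at an unadjusted p under 0.05. Their median was -0.82, and with 1 library left out it ranged from -1.45 without BAT diestrus replicate 3 to -0.49 without BAT estrus replicate 1. Their sum was 91.6 and 248 FPKM in estrus and 410.4, 697 and 241 FPKM in diestrus, so the phases overlapped, and 6426 to 9904 FPKM in WAT. Cyp2e1, a monooxygenase, had 8.72 and 41.6 FPKM in estrus and 117, 91.8 and 51.8 FPKM in diestrus (log2 fold change -2.03 ± 0.65, SE, adjusted p = 0.109; -3.10 without BAT estrus replicate 2 to -0.97 without BAT estrus replicate 1). Slc7a10, a neutral amino acid carrier of white adipocytes, had 1.96 and 6.36 FPKM in estrus and 13.8, 16.4 and 8.38 FPKM in diestrus (log2 fold change -1.52 ± 0.44, SE, adjusted p = 0.0886; -2.18 without BAT estrus replicate 2 to -0.87 without BAT estrus replicate 1). The hormone genes Retn and Lep overlapped, at log2 fold changes of -1.46 and -1.08, and the defining white fat genes Hoxc10 and Tcf21 were at 0 to 0.05 and 0 to 0.09 FPKM. Among secreted factors, Cfd (adipsin) had 1532 and 2291 FPKM in estrus and 3817, 4008 and 2468 FPKM in diestrus (log2 fold change -0.84 ± 0.27, SE, adjusted p = 0.107; -0.49 with the length trend removed), and Adipoq (adiponectin) overlapped at 936 and 965 FPKM in estrus and 1063, 1055 and 804 FPKM in diestrus. The 19 secreted factors had a median of -0.29 (-0.32 without BAT diestrus replicate 3 to -0.15 without BAT estrus replicate 1).

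The 28 markers of skeletal muscle fibres had a median of 1.24, yet none had an unadjusted p under 0.05. Acta1, skeletal actin, had 441 and 475 FPKM in estrus and 98.3, 9.77 and 2159 FPKM in diestrus, so that diestrus held both the lowest and the highest library. The median of the list was 3.10 without BAT diestrus replicate 3 and 0.04 without BAT diestrus replicate 2. Muscle isoforms in other lists varied in the same way, Cox6a2 with 58.98 and 48.3 FPKM in estrus and 9.35, 0.800 and 253 FPKM in diestrus and Ckmt2, the mitochondrial creatine kinase of muscle, with 20.3 and 21.8 FPKM in estrus and 3.91, 0.420 and 86.2 FPKM in diestrus. The 7 genes of creatine and calcium cycling had a median of -0.09, with Ckb, the brain-type creatine kinase, lower (-0.55 ± 0.16, SE, adjusted p = 0.0885).

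The sums of blood and macrophage markers overlapped between the phases. The erythroid sum, mostly globins, was 1811 and 1189.7 FPKM in estrus and 2995, 1057 and 4406 FPKM in diestrus, and its 5 genes had a median of -0.78 (-1.39 without BAT diestrus replicate 2 to -0.34 without BAT diestrus replicate 3) with no unadjusted p under 0.05. Macrophage markers summed to 222 and 178 FPKM in estrus and 177, 182 and 202 FPKM in diestrus, with a median of 0.04 over 17 genes, 0 higher and 2 lower at an unadjusted p under 0.05. With the length trend removed their median was 0.30, with 5 higher and 2 lower at that p. MHC class II genes had a median of -0.08 over 6, complement and coagulation -0.06 over 24, T cell markers 0.10 over 5, mast cell markers -0.35 over 6 (-0.53 without BAT estrus replicate 2 to -0.10 without BAT estrus replicate 1) and Schwann cell markers -0.19 over 8. For B cells, plasma cells, neutrophils, mammary epithelium and thymocytes, 1 to 3 markers passed the limit of 1 FPKM, with medians of -0.20, -0.12, -0.33, -0.12 and 0.01. Interferon-stimulated genes had a lower estrus mean in 24 of 29, with a median of -0.37. At an unadjusted p under 0.05, 4 of them were lower, a smaller share than the 17.3% of all tested genes. The antiviral gene Rsad2 had the lowest p (-0.96 ± 0.24, SE, adjusted p = 0.0705) and Ifit3, which overlapped, the lowest log2 fold change (-1.04 ± 0.50, SE, adjusted p = 0.221). The median of this list ranged from -0.69 without BAT diestrus replicate 1 to -0.16 without BAT diestrus replicate 3.

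**Figure D5:**
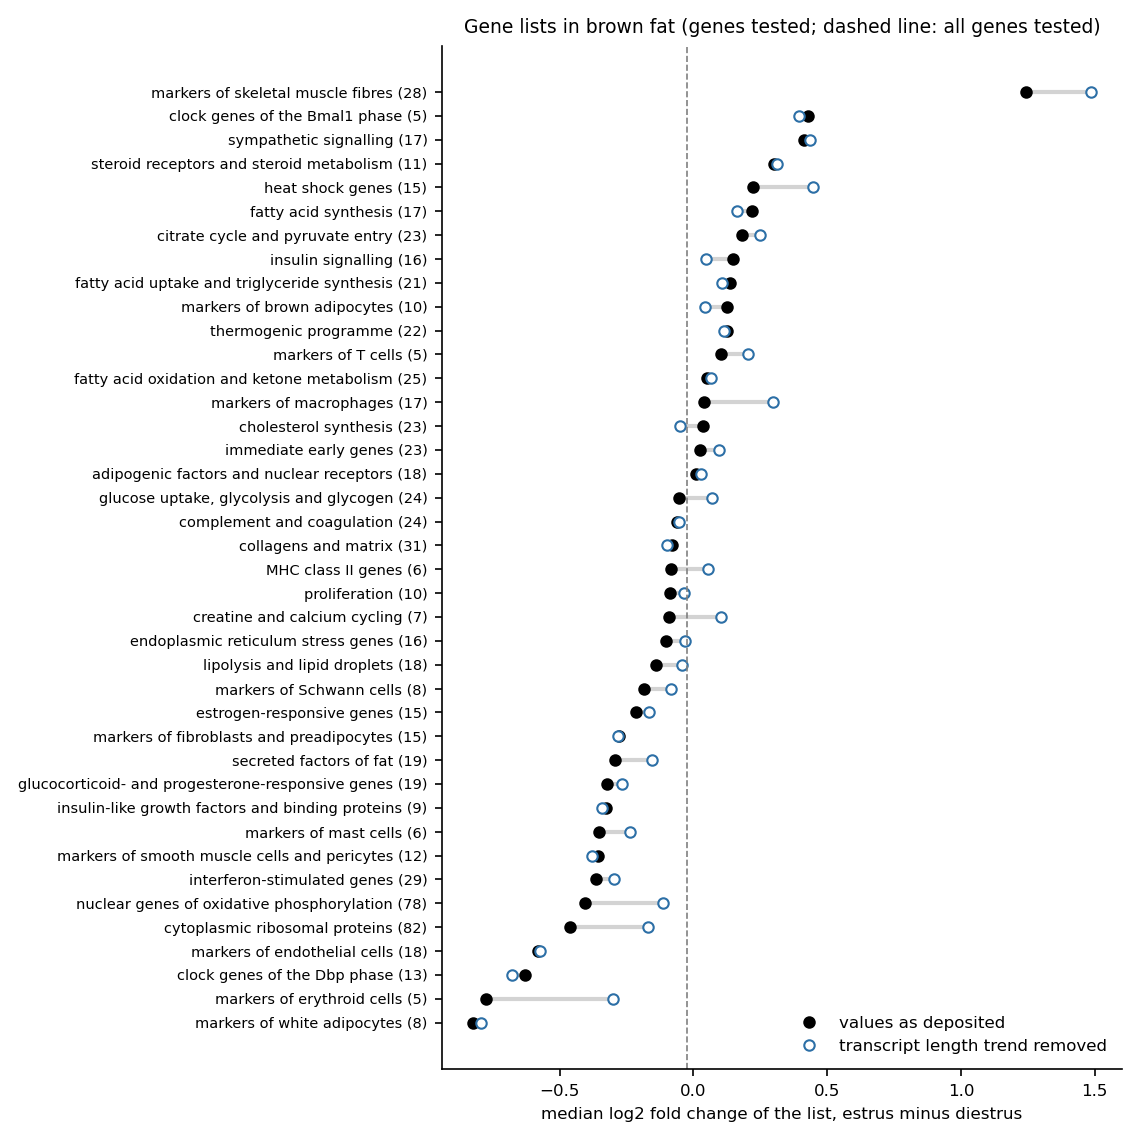
Median log2 fold change (estrus minus diestrus) of each list with at least 5 tested genes, as deposited (black) and with the transcript length trend removed (open blue), the number of genes in brackets and the dashed line at the median of all genes. The medians of oxidative phosphorylation and ribosomal proteins move from -0.41 and -0.46 to -0.11 and -0.17, those of endothelial markers and clock genes of the Dbp phase stay near -0.6, and the highest, skeletal muscle, rests on libraries that overlap.

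Hormone receptors were read next, since estrus and diestrus differ in ovarian hormones. Esr1, the estrogen receptor α, had 8.81 and 9.90 FPKM in estrus and 6.06, 7.22 and 5.09 FPKM in diestrus, with both estrus libraries above all diestrus libraries (log2 fold change 0.55 ± 0.15, SE, adjusted p = 0.0847). It was at 17.1 FPKM in the shallow estrus replicate 3, a value that rests on few reads at that depth. Esr2 stood at 0.06 to 0.18 FPKM, Pgr, the progesterone receptor, at 0 to 0.14 and Gper1 at 0.63 to 1.21 FPKM in the 5 libraries, under the limit for testing. Nr3c2, the mineralocorticoid receptor, had 2.16 and 1.92 FPKM in estrus and 0.490, 0.690 and 0.600 FPKM in diestrus, so that it passed the limit of 1 FPKM only through its estrus libraries and its values are given without a test, and it was at 0 in estrus replicate 3. The glucocorticoid receptor Nr3c1 overlapped at 16.9 and 19.5 FPKM in estrus and 17.02, 20.2 and 19.1 FPKM in diestrus. Over 11 genes of steroid reception and metabolism, 8 were higher in estrus and the median was 0.30 (0.18 without BAT estrus replicate 1 to 0.40 without BAT diestrus replicate 2). Nr3c2 counts among the 11 and among the 8 although it entered only through its estrus libraries, and a median without it was not computed.

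Of 15 estrogen-responsive genes, 13 had a lower estrus mean, with a median of -0.22 and 4 lower and 0 higher at an unadjusted p under 0.05. Ccnd1, the cyclin of early G1, had 3.03 and 4.39 FPKM in estrus and 8.80, 7.12 and 8.57 FPKM in diestrus (log2 fold change -0.97 ± 0.17, SE, adjusted p = 0.0511). It had 8.21 FPKM in estrus replicate 3, a diestrus-like level that rests on few reads. The chemokine Cxcl12 was lower (-0.29 ± 0.10, SE, adjusted p = 0.12), and Ctsd and C3, at 787 and 803 FPKM in estrus and 782, 867 and 699 FPKM in diestrus for Ctsd, overlapped. Insulin-like growth factors and their binding proteins were lower in 8 of 9, with a median of -0.33. Igfbp7, which is abundant in vessel walls, had 90.2 and 104 FPKM in estrus and 143, 163 and 154 FPKM in diestrus (log2 fold change -0.66 ± 0.10, SE, adjusted p = 0.0511). Genes that respond to glucocorticoids or progesterone had 14 of 19 lower and a median of -0.32 (-0.66 without BAT diestrus replicate 2 to -0.16 without BAT diestrus replicate 3), among them the metallothionein Mt1 (-0.63 ± 0.19, SE, adjusted p = 0.0934) and Klf9 (-0.62 ± 0.19, SE, adjusted p = 0.103), and Pdk4 and Angptl4 went the other way. With the length trend removed, Mt1 had -0.34. In proliferation, 10 of 33 genes reached the limit of 1 FPKM, with a median of -0.09, and Tyms, of thymidylate synthesis, was lower (-0.62 ± 0.15, SE, adjusted p = 0.0686).

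Heat shock genes varied between the estrus libraries. Hspa1b, an inducible HSP70, had 17.7 and 95.4 FPKM in estrus and 3.80, 11.4 and 5.72 FPKM in diestrus, highest in estrus replicate 2 (log2 fold change 2.53 ± 0.73, SE, adjusted p = 0.0906), and Bag3, its cochaperone, had 55.3 and 75.4 FPKM in estrus and 28.4, 32.9 and 34.4 FPKM in diestrus (log2 fold change 1.00 ± 0.16, SE, adjusted p = 0.0511). The median of the 15 genes was 0.22, and it was between -0.17 without BAT estrus replicate 2 and 0.59 without BAT estrus replicate 1. Immediate early genes had a median of 0.03 over 23 genes, and Atf3 had 4.05 and 4.96 FPKM in estrus and 2.38, 1.64 and 2.86 FPKM in diestrus (log2 fold change 0.75 ± 0.19, SE, adjusted p = 0.073). Nr4a1, an early gene that adrenergic signals induce, had 41.6 and 31.5 FPKM in estrus and 12.8, 12.5 and 24.7 FPKM in diestrus (log2 fold change 1.14 ± 0.31, SE, adjusted p = 0.0813). Genes of endoplasmic reticulum stress had a median of -0.10 over 16, Ddit3 (CHOP) being lower with 24.3 and 22.7 FPKM in estrus and 42, 39.4 and 42.6 FPKM in diestrus (log2 fold change -0.79 ± 0.09, SE, adjusted p = 0.0511; -0.45 with the length trend removed).

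The 12 genes of lowest p with a fold of at least 1 log2 unit and no overlap were taken in each direction, none of them called. Besides Pdk4 and Irs2, the higher ones held Ffar4, the receptor for long-chain fatty acids on fat cells, with 114 and 131 FPKM in estrus and 52.2, 66.2 and 53.1 FPKM in diestrus (log2 fold change 1.10 ± 0.14, SE, adjusted p = 0.0511). Sik1, a kinase induced by cyclic AMP, had 20.3 and 27.4 FPKM in estrus and 10.98, 12.2 and 10.5 FPKM in diestrus (log2 fold change 1.01 ± 0.15, SE, adjusted p = 0.0511). Sesn2, a stress-induced brake on mTORC1, had 8.66 and 6.30 FPKM in estrus and 2.59, 3.34 and 2.44 FPKM in diestrus (log2 fold change 1.16 ± 0.17, SE, adjusted p = 0.0511). In these 3 genes estrus replicates 1 and 2 were well above the diestrus range, but the shallow estrus replicate 3 had 58.6 FPKM of Ffar4, within that range, 17.8 FPKM of Sik1 and 0 of Sesn2. With it the log2 fold change was 0.74 for Ffar4, 0.88 for Sik1 and 0.13 for Sesn2. Nav2, Gna12 and Ddi2, a protease, were higher by 1.19, 1.07 and 1.29 on the log2 scale, and Bace1, with 2.85 and 2.13 FPKM in estrus and 0.330, 0.650 and 0.260 FPKM in diestrus, passed the limit of 1 FPKM only through its estrus libraries. With estrus replicate 3, where Nav2 was also at 0, the value was 0.35 for Nav2 and 1.40 for Ddi2, while Gna12 had -0.55 with BAT estrus replicate 3, where it was at 0. Pakap, which spans the genes Palm2 and Akap2, had 4.10 and 1.72 FPKM in estrus and was listed at 0 in all diestrus libraries, so no fold is given, and reads could be split between these overlapping genes. LOC100862456 and LOC102641086 had identical values and count as 1 measurement (1.05 ± 0.16, SE, adjusted p = 0.0511).

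Among the lower ones, Hes1, a repressor that Notch signalling switches on, had 7.31 and 5.27 FPKM in estrus and 17.1, 17.3 and 16.4 FPKM in diestrus (log2 fold change -1.31 ± 0.14, SE, adjusted p = 0.0511), and 11.3 FPKM in estrus replicate 3. Rasgrp2, an activator of the small GTPase Rap1, had 12.8 and 14.5 FPKM in estrus and 29.3, 29.04 and 35.1 FPKM in diestrus (log2 fold change -1.13 ± 0.12, SE, adjusted p = 0.0511). Rftn1, a lipid raft protein, had 4.56 and 5.12 FPKM in estrus and 10.97, 11.2 and 12.2 FPKM in diestrus (log2 fold change -1.09 ± 0.10, SE, adjusted p = 0.0511). The diestrus libraries of each of the 3 genes lay close together. Sigirr, a receptor that dampens interleukin-1 signals, had a log2 fold change of -1.30, Sycp3 of -1.21, Insl3 of -1.25, Vsig2 of -1.13, the histone gene H2aj of -1.03 and Rad9b of -1.01. Gm2260 and Gm2274 had identical values and count as 1 measurement (-1.12 ± 0.17, SE, adjusted p = 0.0511). With the length trend removed, Insl3 had -0.77, H2aj -0.91, Gm2260 -0.66 and Gm2274 -0.64, short of the fold limit, while Hes1 kept -1.12.

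How often the shallow library sided with the other estrus libraries was counted where it had depth. The genes taken had at least 50 reads expected in it, a difference of at least 0.5 log2 units and no overlap of the phases in the main comparison. BAT estrus replicate 3 lay on the estrus side of the midpoint for 13 of 14 higher genes (92.9%) and for 27 of 42 lower genes (64.3%), where over all 284 genes of that depth, overlapping or not, the share was 63.0%. At 20 expected reads or more it did so for 28 of 37 higher (75.7%) and 70 of 101 lower genes (69.3%), against 61.5% of all 763 genes. With BAT estrus replicate 3 in the estrus group, 0 genes were called and 1425 had an unadjusted p under 0.05.

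White fat, the other fat tissue of the series, was used to ask which differences were particular to BAT. The test of the difference between the phase contrasts, BAT minus WAT, covered 11830 genes over 11 libraries and called 8 genes (0.0676%) higher and 56 genes (0.473%) lower at an adjusted p of at most 0.05, without a limit on the fold. At an unadjusted p under 0.05 the difference was higher in BAT for 844 genes (7.13%) and lower for 1571 (13.3%). Of the 56, 19 were cytoplasmic ribosomal protein genes, which had a median log2 fold change of -0.46 in BAT and 0.58 in WAT. The largest of these differences by p was Rps21, at -0.73 in BAT and 0.79 in WAT (difference -1.52 ± 0.18, SE, adjusted p = 0.041). Called lower genes had a median transcript length of 1410 bases, called higher genes 4656 bases and all tested genes 3349 bases, and the trend on length was present in BAT (rho 0.309) and near 0 in WAT (rho -0.03, over the same 11708 genes).

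Egfl7 differed between the fats, at -0.83 in BAT and 0.05 in WAT (difference -0.88 ± 0.13, SE, adjusted p = 0.041). The 18 endothelial markers had a median of -0.58 in BAT and 0.05 in WAT, with 1 called, and 9 lower and 0 higher at an unadjusted p under 0.05 in the test of the difference, where 13.3% of all genes were lower. Hes1 differed as well, at -1.31 and -0.15 (difference -1.17 ± 0.20, SE, adjusted p = 0.046). Clock genes of the Dbp phase had medians of -0.63 in BAT and -0.25 in WAT, and in the test of the difference 0 of 13 was called and 0 had an unadjusted p under 0.05, so that their lower level in estrus was not shown to be particular to BAT. Sympathetic signalling had medians of 0.41 and 0.04 and the citrate cycle 0.18 and -0.15, again with 0 called in both lists. At an unadjusted p under 0.05 the difference was higher in BAT for 5 of the 17 and 4 of the 23 genes and lower for 0, where 7.13% of all genes were higher.

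These calls depended on single libraries. Leaving out any 1 of BAT estrus replicate 1, the 3 BAT diestrus libraries, WAT estrus replicate 3 and the 3 WAT diestrus libraries left 0 called genes, leaving out BAT estrus replicate 2 left 6, and leaving out WAT estrus replicates 1 or 2 gave 213 or 314. WAT estrus replicate 1 stood apart within WAT, with a smooth muscle marker sum of 2860 FPKM against 298 to 446 FPKM in the other WAT libraries and a macrophage sum of 1237 against 398 to 652 FPKM. Its part in the result was not tested beyond leaving it out. With BAT estrus replicate 3 in the fit, 0 genes were called higher and 12 lower.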

How the data were processed

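RNA sequencing libraries of brown fat from mice in estrus (n = 2, with a shallow library kept apart) and diestrus (n = 3) were compared. Reads had been filtered with SOAPnuke, aligned to GRCm38 with Bowtie2 2.2.5 and quantified with RSEM 1.2.8, according to the study and the submitters' processing notes. The table deposited by the authors gave 1 value per gene and library, taken to be FPKM, without counts, so depths are approximations and counting intervals are not given. Whether counting used strand is not given in the sources used here, so overlapping genes are uncertain. Groups and replicate numbers came from the sample labels.

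Genes with a mean of 1 FPKM or more were tested as log2(FPKM + 1) with limma (version 3.58.1, R 4.3.3), a trend of the variance on intensity, no covariates and Benjamini-Hochberg adjustment, after a run on simulated data. The phase contrasts of brown and white fat were compared in 1 model with a mean per tissue and phase. Python 3.11.15, numpy 2.4.6, pandas 2.3.3, scipy 1.17.1 and matplotlib 3.10.9 served for the rest. Symbols and promoters came from RefSeq (GRCm38.p6), which named 20265 genes. Of 45 gene lists, 5 symbols had no match (Tpsab1, Ahsp, Sts, Mx1 and Mx2).

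The comparison, the lists and the tests were chosen with earlier results of these data known. Named by rule were the 12 genes per direction with the lowest p, a fold of at least 1 log2 unit and no overlap, in each list the 3 most abundant genes and the one with the lowest p, Esr1, Esr2, Pgr, Gper1 and Ucp1, and 5 genes per direction that differed from white fat, less items that are not reported here. Other list members, such as the Per genes, Cry2, Ppargc1a, Pdha1 and Pecam1, were named after their values were seen. The alternatives covered libraries left out or added, pseudocounts, filters, scaling, a replicate block, a joint fit, the limits, and, chosen after seeing the data, trends on transcript length and GC content removed by lowess (span 0.3).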

Additional observations from a re-analysis of the deposited data

Results flagged for a closer look

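The phase contrast in BAT differed from that in WAT by a test of the difference itself for 8 genes that were higher and 56 genes that were lower in BAT, by limma with Benjamini-Hochberg adjustment. The values below are differences of log2 fold changes, BAT minus WAT. Among the higher ones, the difference was 1.79 for Ddi2, 1.00 for Scyl2, 0.95 for Mtmr9 and 1.17 for Acss3. Among the lower ones it was -1.52 for Rps21, -1.49 for Rps14, -1.48 for Rps29 and -1.27 for Rpl38, all of the cytoplasmic ribosome, and -1.94 for the pseudogene Gapdh-ps15, whose reads could be shared with Gapdh. Outside these groups it was -1.17 for Hes1, -0.93 for Rasgrp2 and -0.88 for Egfl7. These 12 genes had adjusted p-values of 0.0410 to 0.0496. Each kept its sign when any 1 of the 11 libraries was left out, and its highest adjusted p over those fits lay between 0.176 and 0.249, past the limit. Acss3, an enzyme of short-chain fatty acid activation, had 10.7 and 11.05 FPKM in the estrus and 5.55, 6.92 and 4.78 FPKM in the diestrus libraries of BAT, where both estrus libraries were above diestrus. In WAT it had 18.4, 15.6 and 21.5 FPKM in estrus and 24.8, 23.6 and 22.04 FPKM in diestrus, where all estrus libraries were below diestrus. Rps29 had 346 and 308 FPKM in estrus and 608, 562 and 663 FPKM in diestrus in BAT, against 506, 390.3 and 406 FPKM in estrus and 296, 264 and 306 FPKM in diestrus in WAT.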

How the results depend on the processing

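The count of 0 called genes held with BAT estrus replicate 3, under both pseudocounts, under both scalings, without the intensity trend, without the fold limit, with the length or the length and GC trends removed, and without each library (0 in all 5). It was 1 with no filter, 45 at a mean of 5 FPKM or more, 57 in one fit of all tissues, 76 with BAT estrus replicate 3 and array weights, and 82 at an adjusted p of 0.1. The cause was not tested, except that fewer genes were tested under the stricter filter and the looser p admits more. Genes at an unadjusted p under 0.05 numbered 3363 as reported, 1425 with BAT estrus replicate 3, 2153 in the fit of all tissues, and 1998 (without BAT estrus replicate 1) to 3183 (without BAT estrus replicate 2) with 1 library left out. The 64 calls between BAT and WAT became 12 with BAT estrus replicate 3, and 0 to 314 with 1 library left out.

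With the replicate block, 32 genes were called in BAT (28 higher, 4 lower) and 0 between BAT and WAT. Deviations of same-numbered libraries correlated at 0.0993 and 0.03 across genes. With 2 estrus libraries the deviations from their mean mirror each other, so these values cannot show whether the numbers pair the mice.

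Of 3110 values of 175 named genes, 130 had the other sign, in 57 genes. Of the 130 values, 20 had an unadjusted p under 0.05 in the main or the alternative limma fit. With BAT estrus replicate 3 the log2 fold change was -0.55 for Gna12, -0.029 for Clock and -0.065 for Atf3. With quantile normalization it was 0.036 for Cidea and 0.044 for Fabp4. With the length trend removed it was 0.18 for Cox6a1, 0.078 for Hsd17b10, 0.51 for Mt2 and 0.014 for H2-Ab1. With the length and GC trends removed it was 0.039 for Cox8b, 0.021 for Cidea, 0.37 for C1qa, 0.026 for Pmvk, 0.36 for Cox6a1, 0.34 for Cebpb, 0.067 for Hsd17b10, 0.57 for Mt2 and 0.10 for H2-Ab1. Myl1 had 0.75 with the replicate block, and -0.63 to 0.75 with 1 library left out. Of the 45 list medians, 26 kept their sign under all 18 alternatives. Below about 1 FPKM the depth limits what can be seen, and BAT estrus replicate 3 is too shallow for genes of low level.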
